A study of Homo sapiens with 4 samples.

Results

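CEBPE encodes C/EBP-epsilon, a transcription factor that drives the terminal maturation of granulocytes, and the gene and its flanks on chromosome 14 held the strongest run of RNA fragments captured more in control cells than in cells with a slow RNA polymerase II (RNAPII). The account covers every row of the 4 deposited peak lists that lay between 23580000 and 23595000 of the hg19 build, which was 13 of 4889 rows. The interval was chosen as a run of peaks, by their measured fold in both pairs of libraries. Its folds, fragment numbers, widths, number of peaks, covered length and recurrence between pairs are therefore a description and were not tested. All 13 rows were higher in the control libraries, 8 in the first pair and 5 in the second. The lists of peaks higher in the slow libraries had 0 rows in the interval in each pair.

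The measurements come from MeRIP-seq of HEK293, a human embryonic kidney cell line, in which RNA fragments are captured with an antibody against N6-methyladenosine (m6A). There were 4 such libraries, 2 from cells expressing the slow-elongating RNAPII and 2 from cells labelled wild type (WT) control. Per the labels, both groups took doxycycline (1 µg/ml) alone over 24 h and then together with α-amanitin (2.5 µg/ml) over another 42 h. The series' text describes the cells as expressing α-amanitin mutants of RNAPII, and the labels used here do not give the amino acid change of either form. α-amanitin blocks the cell's own RNAPII, so a polymerase that withstands it carries out transcription during the treatment. Whether same-group libraries came from separate cultures is not stated. Each pair set a WT library against the slow library of the same number.

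m6A is written on transcripts by the METTL3-METTL14 complex within a short consensus that has GGAC as a common core. It is known to gather around stop codons and in long exons. CEBPE is a small gene, known mainly from bone marrow, where C/EBP-epsilon switches on genes for secondary granule proteins of neutrophils and eosinophils. Loss of the factor in people leads to a deficiency of neutrophil specific granules. The rule for the interval places CEBPE at about 23586515 to 23588820. RefSeq on GRCh38.p14 puts the gene on the minus strand, so its 3′ end is at the lower coordinate and its 5′ end at the higher. In RefSeq's gene order the neighbouring protein-coding genes are CIROP on the 3′ side and SLC7A8, an amino acid transporter gene, on the 5′ side.

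The promoter is shown because the peaks below ran across the 5′ end of the gene. The RefSeq entry (GRCh38.p14, chr14:23119206-23119505, minus strand) holds the 250 bases before the gene's start and the first 50 after it, written 5′ to 3′ along CEBPE. Capitals mark GTCC, which is GGAC read on the opposite strand.
CEBPE promoter: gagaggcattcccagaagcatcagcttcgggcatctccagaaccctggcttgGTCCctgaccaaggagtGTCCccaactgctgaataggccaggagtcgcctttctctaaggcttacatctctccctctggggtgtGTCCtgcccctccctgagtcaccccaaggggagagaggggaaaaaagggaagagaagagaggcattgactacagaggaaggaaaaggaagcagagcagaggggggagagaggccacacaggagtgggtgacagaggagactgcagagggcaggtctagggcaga
GGAC occurred 0 times on the CEBPE strand and 3 times on the opposite strand, beginning 198, 181 and 114 bases before the start. Of 35116 promoter entries of the same length, 66.3% held GGAC on the gene's own strand and 87.4% on either strand. GGACT, which contains GGAC, occurred 0 times on either strand, against 44.2% of entries that held it. RefSeq's gene on GRCh38.p14 is 1950 bp long and the interval given for CEBPE on hg19 is 2306 bp, a difference of 356 bp. Where this start falls among the hg19 peaks is therefore not stated, and no coordinates were converted. Distances to the ends of CEBPE below are to the approximate hg19 bounds above, and the difference of 356 bp is larger than several of them, so whether a summit lies inside or outside the gene near an end depends on the annotation.

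The 8 peaks of the first pair made up 0.874% of its 915 WT-higher peaks, and the 5 of the second 0.707% of its 707. On chromosome 14 they were 8 of 49 WT-higher peaks in pair 1 and 5 of 35 in pair 2. Together they spanned 5300 bp of sequence in the first pair and 4077 bp in the second, a mean of 4689 bp ± 865 (SD, n = 2), which was 2.80% and 2.77% of all sequence in those lists. CEBPE itself was covered over 2046 bp in pair 1 (88.7% of the gene) and 1987 bp in pair 2 (86.2%). A further 2729 bp and 1876 bp lay beyond the 5′ end, and 525 bp and 214 bp beyond the 3′ end. More of the covered sequence of pair 1 thus lay upstream of CEBPE than within it. In pair 2 the gene held slightly more by these bounds. That margin is smaller than the 356 bp by which the annotations differ, so the order in pair 2 depends on the annotation. The peaks of pair 2 lay almost wholly within those of pair 1. Both pairs covered the same 4048 bp, which was 76.4% of the sequence covered in pair 1 and 99.3% of that in pair 2.

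**Figure D1:**
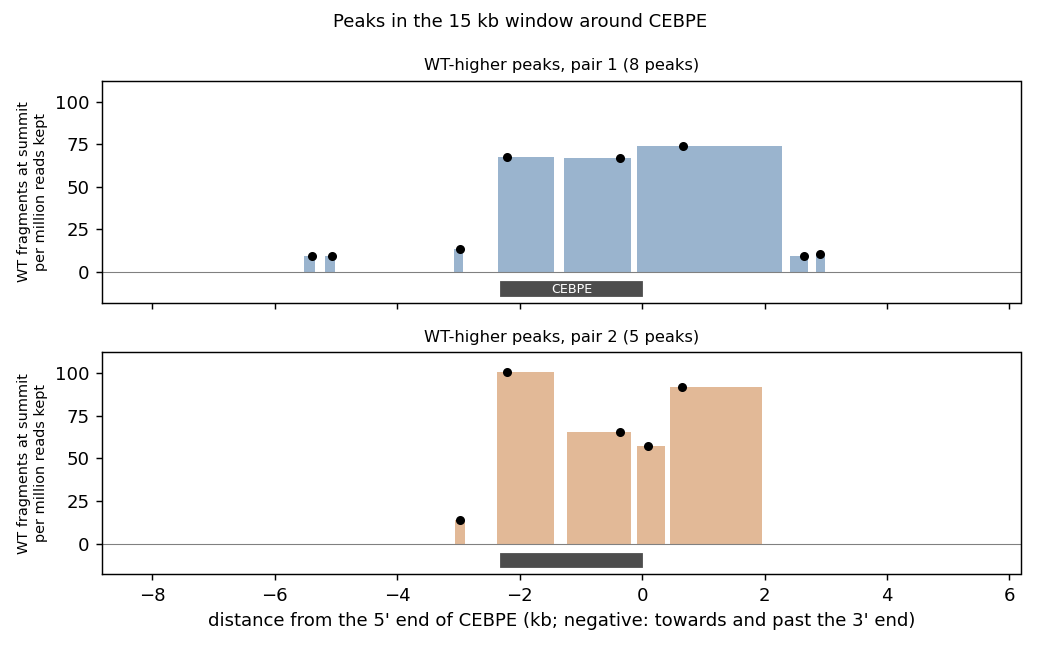
Peaks of both WT-higher lists along the window; the horizontal axis is the distance in kb from the 5′ end of CEBPE on hg19 (the gene is the dark bar), each block spans a peak, and its height and the black point at the summit give WT fragments per 1000000 reads kept. The tall blocks over the gene and upstream of it stand at 57.2 to 100.3 fragments and the small outer blocks at 9.44 to 14.1.

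Values per peak are the caller's own. A peak's summit is its highest point, its WT fragments are the reads extended to fragment length that overlap the summit, and its fold is the WT pileup over the slow background, with 1 added to each. Because the calls set IP against IP with no input, a difference in methylation, in the amount of the transcript, and in the number of cells that carry it cannot be told apart. A fold compares 1 library with 1 library. The peak lists give no strand, so the strand and the transcript that the fragments came from cannot be told. Places named after CEBPE below are positions only.

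The 3′ end of CEBPE carried a peak with almost the same borders in both pairs. In pair 1 it ran from 23586465 to 23587386 (922 bp) and in pair 2 from 23586458 to 23587383 (926 bp). The summits, at 23586613 and 23586614, lay 98 and 99 bp inside the 3′ bound. Each WT library held 114 fragments over the summit, which was 67.2 per 1000000 reads kept in pair 1 and 100.3 in pair 2 (mean 83.8 ± 23.4, SD, n = 2). The slow libraries held 5 fragments in pair 1 and 1 in pair 2. The fold accordingly differed, at 7.99 in pair 1 and 27.95 in pair 2, the latter being the highest of all 707 WT-higher folds of that pair. Scaled for depth and with nothing added, WT exceeded slow 9.39-fold in pair 1 (95% exact interval 3.91 to 29.5) and 54.9-fold in pair 2 (9.66 to 2187). The intervals rest on 5 and 1 slow fragments and cover counting error only. Neither the choice of the interval on its fold nor the placing of each summit at the WT maximum is included. These and the intervals below are therefore no test. The difference between the pairs was not tested.

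The 5′ part of the gene carried a second peak, wholly inside those bounds. It ran from 23587546 to 23588638 (1093 bp) in pair 1 and from 23587599 to 23588635 (1037 bp) in pair 2, and the summits at 23588466 and 23588454 were 12 bp apart. The summits lay 354 and 366 bp inside the 5′ bound, and the peaks ended 182 and 185 bp inside it. The annotations differ by 356 bp, so whether this peak lies wholly within the gene depends on the annotation. The WT libraries held 113 and 74 fragments over the summit. Per 1000000 reads kept these were 66.7 and 65.1 (mean 65.9 ± 1.10, SD, n = 2), so the pairs gave nearly the same level. Each slow library held 1 fragment there. The folds were 23.8 and 18.3, and the depth-scaled ratios were 46.5 (95% exact interval 8.18 to 1854) and 35.6 (6.20 to 1426).

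Upstream of CEBPE the signal did not stop at the gene's 5′ end. In pair 1 a peak of 2358 bp, from 23588740 to 23591097, began 80 bp inside the gene and reached 2277 bp beyond it. In pair 2 the same stretch was split by 75 bp into a peak of 461 bp, from 23588740 to 23589200, and one of 1496 bp, from 23589276 to 23590771. The left border, 23588740, was identical in both pairs. The summit of the long peak in pair 1 (23589482) and that of the longer piece in pair 2 (23589476) were 6 bp apart, 662 and 656 bp upstream of the 5′ bound. Over them lay 125 and 104 WT fragments, or 73.7 and 91.5 per 1000000 reads kept (mean 82.6 ± 12.6, SD, n = 2), and 1 slow fragment in each pair. The folds were 26.2 and 25.5, and the depth-scaled ratios 51.5 (95% exact interval 9.07 to 2049) and 50.1 (8.79 to 1997). The fold of 26.2 was the highest of all 915 in pair 1. The shorter piece in pair 2, with its summit at 23588919, 99 bp beyond the 5′ bound, had 65 WT fragments, 0 slow fragments and a fold of 22.8. With 0 slow fragments, read as up to 3, the WT level per read kept was 10.4 times that limit, without the counting error of the WT fragments.

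**Figure D2:**
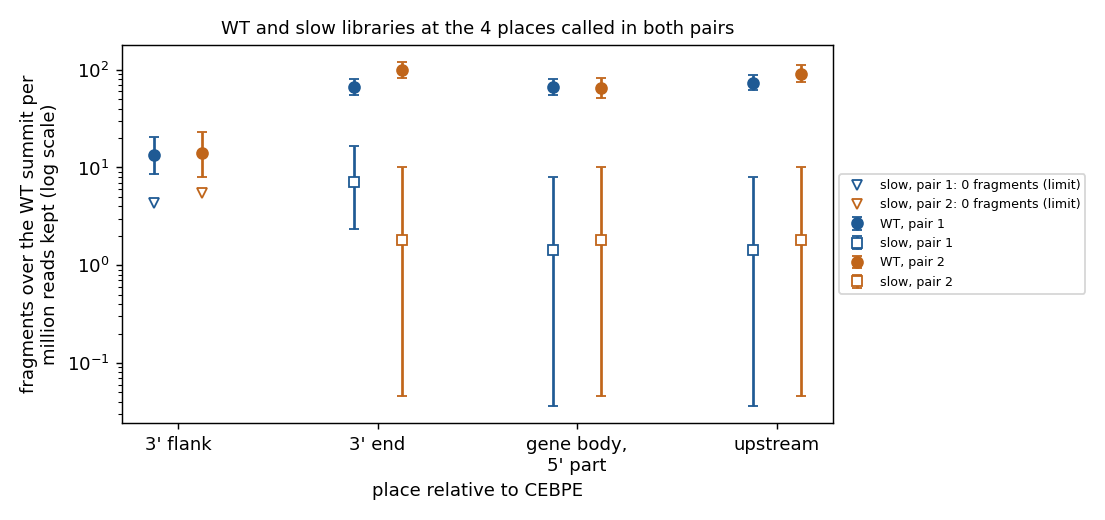
Fragments over the WT summit per 1000000 reads kept (log scale) at the 4 places found in both pairs, with exact 95% Poisson intervals; filled circles are WT, open squares slow, and open triangles the limit that 3 counts give where a slow library had 0. At the 3 tall places WT lies between 65.1 and 100.3 and slow between 1.43 and 7.16; the places were chosen for this difference, which was not tested.

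Of the breaks between the tall peaks, 2 were found in both pairs, and the break of 75 bp in the upstream stretch of pair 2 had no counterpart in pair 1. Between the 3′-end peak and the next, 159 bp in pair 1 and 215 bp in pair 2 were not part of a peak. Between the peak in the gene's 5′ part and the upstream one the break was 101 and 104 bp, ending at 23588739 in both pairs and starting at 23588639 and 23588636. The tall peaks thus lay side by side, and they are not independent of each other.

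Small peaks flanked the run, mostly in pair 1. The one on the 3′ side that recurred had its summit at 23585848 in both pairs, 667 bp past the gene's 3′ end, with 23 and 16 WT fragments (13.6 and 14.1 per 1000000 reads kept, mean 13.8 ± 0.360, SD, n = 2) and folds of 9.41 and 7.64. The other 4 small peaks were listed in pair 1 alone. They were a couple with summits at 23583436 and 23583749 on the 3′ side and another at 23591468 and 23591719 on the 5′ side, with 16, 16, 16 and 18 WT fragments and folds from 6.57 to 7.76. At the same level, the WT library of pair 2 would have held 10.7 to 12.1 fragments there. The smallest of the 279 pair 2 peaks with a background under 0.2 had 8 fragments, so peaks of that size did enter the list, and all that can be said is that these places are not listed in it. By overlap of at least 1 bp, 4 of the first pair's 8 peaks and 5 of the second pair's 5 were found in the other pair. Both pairs were known when the interval was chosen. The share of all WT-higher peaks that recur in the other pair is not given here, so nothing is read from this recurrence. Widths in the interval ranged from 147 to 2358 bp in pair 1 and from 157 to 1496 bp in pair 2.

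Few slow fragments remained over the WT summits after duplicates were dropped. Slow reads away from the summits are known only through the caller's windows in pair 1. At the 13 summits, the slow library held 0 fragments at 7, 1 fragment at 5 and 5 fragments at 1. At the 6 small peaks with 0 slow fragments, the WT level was set against the limit of 3 counts per library (4.30 and 5.48 per 1000000 reads kept). It was 2.20 to 3.16 times that limit in pair 1 and 2.57 times in pair 2. The counting error of the WT fragments is not included, so these are not lower bounds of the ratio. The caller's background at the 5 small peaks of pair 1 equals, within 0.06 reads, a whole number of slow reads in its 10 kb window, from 6 to 11. The window around 23591468, which reaches down to 23586468, gave 11 reads. That around 23591719, which reaches down to 23586719 and so leaves out the summit of the 3′-end peak, gave 6. The difference of 5 reads equals the number of slow fragments over that summit.

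The tall peaks combined many WT fragments with a low slow background, except for the 3′-end peak of pair 1, with 5 slow fragments. This combination gives a high fold, on which the interval was chosen. WT fragments had a median of 20.5 in pair 1 and 74 in pair 2, against 26 and 25 in the whole WT-higher lists. Elsewhere, a slow background of at most 1 was found at 635 peaks of pair 1 and 475 of pair 2, with at most 62 and 64 WT fragments. A fold of at least 10 was reached by 2 of the 8 peaks in pair 1 and 4 of the 5 in pair 2, beside 11.4% and 11.7% of all peaks in those lists. A fold of at least 20 was reached by 2 and 3 of them, beside 0.219% and 0.566% of the lists. In pair 1 those 2 were the only peaks of the list to reach it, and in pair 2 they were 3 of 4. A width of at least 400 bp was reached by 3 and 4 peaks, beside 3.17% and 3.68%. At least 40 WT fragments lay over 3 and 4 summits, beside 27.7% and 24.2%. Since the interval was chosen on the fold, these shares are printed for scale and nothing is read from them. Peaks with 100 or more WT fragments occurred elsewhere, 9 in pair 1 and 13 in pair 2, but their folds were 2.48 to 5.58 and 1.81 to 4.22, over slow backgrounds of 7 to 20 and 11 to 40 fragments. In the interval 3 peaks of pair 1 and 2 of pair 2 had as many fragments, with folds of 7.99 to 26.2 and 25.5 to 27.95. The median fold was 7.87 over the 8 peaks of pair 1 and 22.8 over the 5 of pair 2, against 6.89 and 7.0 in the whole lists. Pair 1 had 5 small flanking peaks and pair 2 had 1. Among peaks whose −log10 q reached 10, the medians were 16.6 and 24.2.

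**Figure D3:**
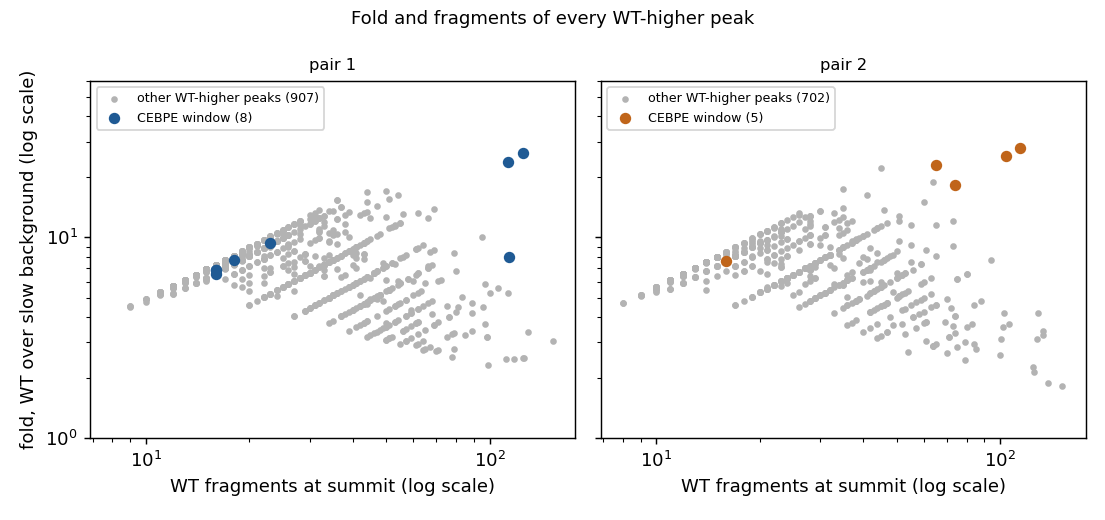
Fold of WT over slow background against WT fragments at the summit for every WT-higher peak (both axes log scale), with peaks of the CEBPE window in colour. Peaks elsewhere with 100 or more fragments have folds of at most 5.58, while those of the window reach 26.2 in pair 1 and 27.95 in pair 2.

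Chained at gaps of up to 20 kb, the WT-higher peaks formed 282 loci with a peak in both pairs. Over both pairs together the CEBPE locus ran from 23583304 to 23591800, which is 8497 bp, with both ends set by small peaks listed in pair 1 alone. In pair 2 the peaks ran from 23585764 to 23590771, which is 5008 bp. The covered length of the locus, 5300 and 4077 bp, was followed by 1455 and 1232 bp at the next locus of each pair. The median of the others was 217 and 204 bp. Its highest fold of 26.2 and 27.95 was followed by 17.0 and 22.1. The WT fragments at its tallest summit, 125 and 114, were only the fourth and sixth highest among the loci. In number of peaks it had 8 and 5, where the most elsewhere was 7 and 5. The locus therefore stood first in covered length and fold, tied in peaks of pair 2, and not first in fragments.

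**Figure D4:**
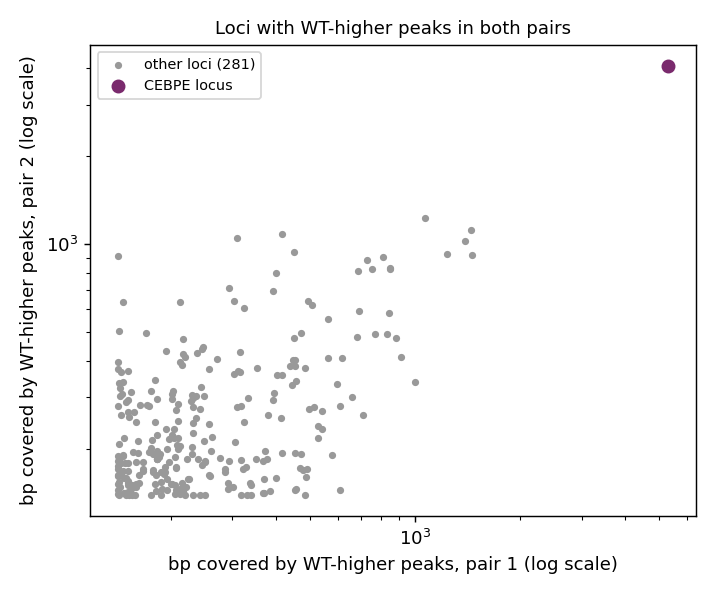
Base pairs covered by WT-higher peaks in pair 1 (horizontal) and pair 2 (vertical), both on log scales, for the 282 loci with a peak in both pairs. The CEBPE locus lies at 5300 and 4077 bp, and the other 281 lie at or below 1455 and 1232 bp.

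The loci most like it in highest fold were chosen by the smallest distance in log2 fold over the 2 pairs. The nearest was on chromosome 2 from 20870687 to 20871113, with folds of 13.3 and 18.8 (distance 1.14). Next were chromosome 12 from 65268924 to 65269566, with 13.3 and 17.4 (distance 1.2), and chromosome 14 from 95234668 to 95234964, with 11.4 and 22.1 (distance 1.25). These 3 held 1 or 2 peaks per pair and covered 201 to 493 bp in pair 1 and 295 to 639 bp in pair 2. All 3 covered less than the 5300 and 4077 bp around CEBPE. They were matched on fold alone and the interval was chosen as a run, so nothing is read from their shorter length. The locus with the most peaks elsewhere in pair 1 was on chromosome 1 from 152276175 to 152285090. It held 7 and 5 peaks over 1390 and 1028 bp, with highest folds of 8.46 and 10.8.

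The absence of slow-higher peaks reached beyond the interval. The nearest slow-higher peaks on the 3′ side ended 67.6 kb below the interval in pair 1 and 67.7 kb in pair 2, with folds of 7.64 and 4.86. On the 5′ side the nearest began 1191 kb and 1570 kb above it, with folds of 3.63 and 5.86. The nearest WT-higher peaks outside the interval are given beside them. In pair 1 they lay 1587 kb below and 5642 kb above the interval, and in pair 2 they lay 339 kb below and 431 kb above. All of chromosome 14 held only 49 and 35 WT-higher peaks, 8 and 5 of them in the interval, so these distances are not read as a trait of it. Over all of chromosome 14 the slow-higher lists held only 38 and 22 peaks, so nearly every interval of 15 kb on it holds 0. The absence of slow-higher peaks therefore does not set this interval apart. A peak that is not listed did not pass the caller's limit and cannot be read as a lack of methylation.

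Depth and duplicate removal bear on these numbers. The WT libraries kept 1695246 and 1136611 reads and the slow libraries 698050 and 547402, with 92% of WT and 96% and 94% of slow reads set aside as redundant. Since 1 read was kept per position and strand, at most 282 fragments in pair 1 and 278 in pair 2 could overlap a position. The tallest summits of the locus, 125 and 114 fragments, reached 44.3% and 41.0% of that ceiling. The effect of the ceiling on the folds was not tested.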

How the data were processed

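The 4 peak lists of IP libraries were used as deposited. Reads were aligned with TopHat2 to hg19, per the submitters' processing notes. Per the file headers, the peak caller was MACS (2.1.1.20160309) with a q limit of 0.01, and it set each IP library against its partner of equal number, without pooling. The deposited pileup is a coverage signal scaled to the smaller library. The deposited fold ratio adds a pseudocount of 1. The −log10 p and q columns had lost their names as deposited and were told apart by column order. Peak widths and summits are positions in bp as deposited.

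Dividing the WT pileup by the scale gave whole fragments (within 0.05) for all 915 and 707 peaks. The slow background was (pileup + 1)/fold − 1. A background within 0.01 of a whole number was read as slow fragments over the summit. Other backgrounds were below 1, so no slow fragment lay there, and were read as reads in the caller's 1000 or 10000 bp window times fragment length (141 and 139 bp), whole within 0.02 and 0.06 reads. In pair 2 they match both windows (1 or 10 reads, and 3 or 30), so no read number is given. Intervals are exact 95% binomial or Poisson intervals and cover counting error only, since reads carry no molecular identifiers. The limit for 0 is 3 counts per library. Places and loci were found with Python 3.11.15 and pandas 2.3.3, and the interval functions were tested on simulated data of 1000 peaks, where 7 of 7 checks returned what was planted. No test between groups was run, because the interval was chosen on these measurements. All members, lists and rules were chosen with earlier results of these data known. All rows in the interval are described, as are the nearest peak of each list on either side and the 3 loci most similar in highest fold. No hg19 genome or annotation was used here, so peak sequences and lists of other genes were not analysed.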

Additional observations from a re-analysis of the deposited data

How the results depend on the processing

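Of 36 alternatives, 34 stayed within 1.5 times (counts and lengths) or within the spread between pairs (folds), 2 moved a value and 0 reversed one. With a −log10 q of at least 10, pair 1 kept 4 of its 8 peaks. Its median fold then rose from 7.87 to 16.6, which was counted as within the spread. The median folds of the pairs differed so widely (SD 10.6, n = 2) that few changes of them could count as moved. With 3 in place of 1 added to WT pileup and slow background, the mean of the highest folds was 14.05 in place of 27.1, and the mean of the median folds 6.86 in place of 15.3, the last within a wide spread between pairs (SD 10.6). Both follow from the low slow background, where the added constant sets much of the fold. Leaving out a pair gave 26.2 to 27.95 for the highest and 7.87 to 22.8 for the median fold. Slow-higher peaks numbered 0 also with the interval widened by 10 kb on each side. The settings on q and on the summit can only remove peaks, so their 0 was fixed in advance. They are nonetheless counted among the 34 alternatives that stayed. No paired analysis was possible because values per library were had only at summits that the WT library defined, in an interval chosen on them, so that no fit with and without a replicate block could be made. The slow libraries' depth limits every ratio, as most rest on 0 or 1 slow fragment.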
